A study of Mus musculus with 8 samples.

Results

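The mitosis and spindle genes are 43 genes that act in the division of a cell, from the kinases that start mitosis to the proteins that part the daughter cells. They were found in the deposited gene table by gene name, which matched 41 of the 43 among 26873 features; Ccnb2 and Nek2 were not matched and are not analysed here. All 41 had enough counts to be tested, among 15942 genes that did. The 8 libraries hold messenger RNA of wild-type bone marrow mesenchymal stem cells (a cell line labelled BMSCs, Mus musculus) under osteogenic differentiation, 1 library for each of 4 arms on day 3 and day 7. All cells were kept in complete DMEM with fetal bovine serum that had been used to extract polycaprolactone (PCL) scaffolds. PCL-S and PCL-SE were read as the extracts with S7, and PCL-E and PCL-SE as those with E7; the blank of the design is then PCL-O, the one arm left. S7 and E7 are peptides by the title of the series, with no dose stated in the sources used here. The labels' protocol speaks of 3 RNA samples, whereas the table has 1 column per arm and day.

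Mitosis begins when Cdk1 joins cyclin B and phosphorylates many proteins, with Polo-like and Aurora kinases acting beside it. Chromosomes condense, kinetochores built on the centromeres catch spindle microtubules, and the spindle checkpoint holds the anaphase-promoting complex (APC/C) back until every chromosome is attached. Separase then frees the sister chromatids, and a bundle of microtubules between the poles directs the contractile ring that divides the cell. Transcripts of these genes accumulate in G2 and M phase and are repressed by the DREAM complex in cells that have left the cycle, so their summed level is widely used as a marker of proliferation. Mesenchymal stem cells commonly slow their division as they differentiate into osteoblasts.

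Libraries held 32950326 to 41754124 counts, and 3 counts equal 0.0718 to 0.0911 CPM, the counts of a gene relative to its library total. Values below are normalised CPM, with library sizes scaled by the trimmed mean of ratios (TMM). The labels give mouse cells, yet the identifiers in the table are rat ones, and the species was not settled. Each of 7 stromal markers was detected in every library; of the haematopoietic markers Adgre1 stood at 0 throughout and Ptprc at 0.0526 or less, and the endothelial marker Cdh5 stood at 0. The sum of the 7 stromal markers, most of it Col1a1, was 38504 to 41247 normalised CPM with S7 and 25797 to 27073 without on day 3, and 7356 to 7817 with S7 and 19817 to 31211 without on day 7. The sum of the 8 haematopoietic markers matched, most of it Cd14, was 16.2 to 19.0 in the arms with S7 and 7.29 to 11.2 in those without. The sum of the 3 endothelial markers matched, nearly all Tek, was 13.8 to 15.3 with S7 and 5.80 to 6.70 without on day 3, and 3.54 to 3.55 against 3.40 to 4.23 on day 7. These sums move with the arms compared below, and their part in the results was not tested.

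The summed level of the 41 genes was highest in both S7 arms on day 3 and lowest in both S7 arms on day 7. On day 3 it was 1469 normalised CPM for PCL-O, 1619 for PCL-E, 2373 for PCL-S and 2395 for PCL-SE. On day 7 it was 1812, 1662, 1050 and 1013 in the same order. Scaled to library totals without TMM, the day 7 sums were 1729, 1694, 1207 and 1171 in the same order. Of the 41 genes, 38 were highest in an S7 arm on day 3 (PCL-S for 17, PCL-SE for 21) and 33 were lowest in an S7 arm on day 7 (PCL-S for 14, PCL-SE for 19). In bulk RNA, fewer dividing cells and less of a transcript per cell cannot be told apart.

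**Figure D1:**
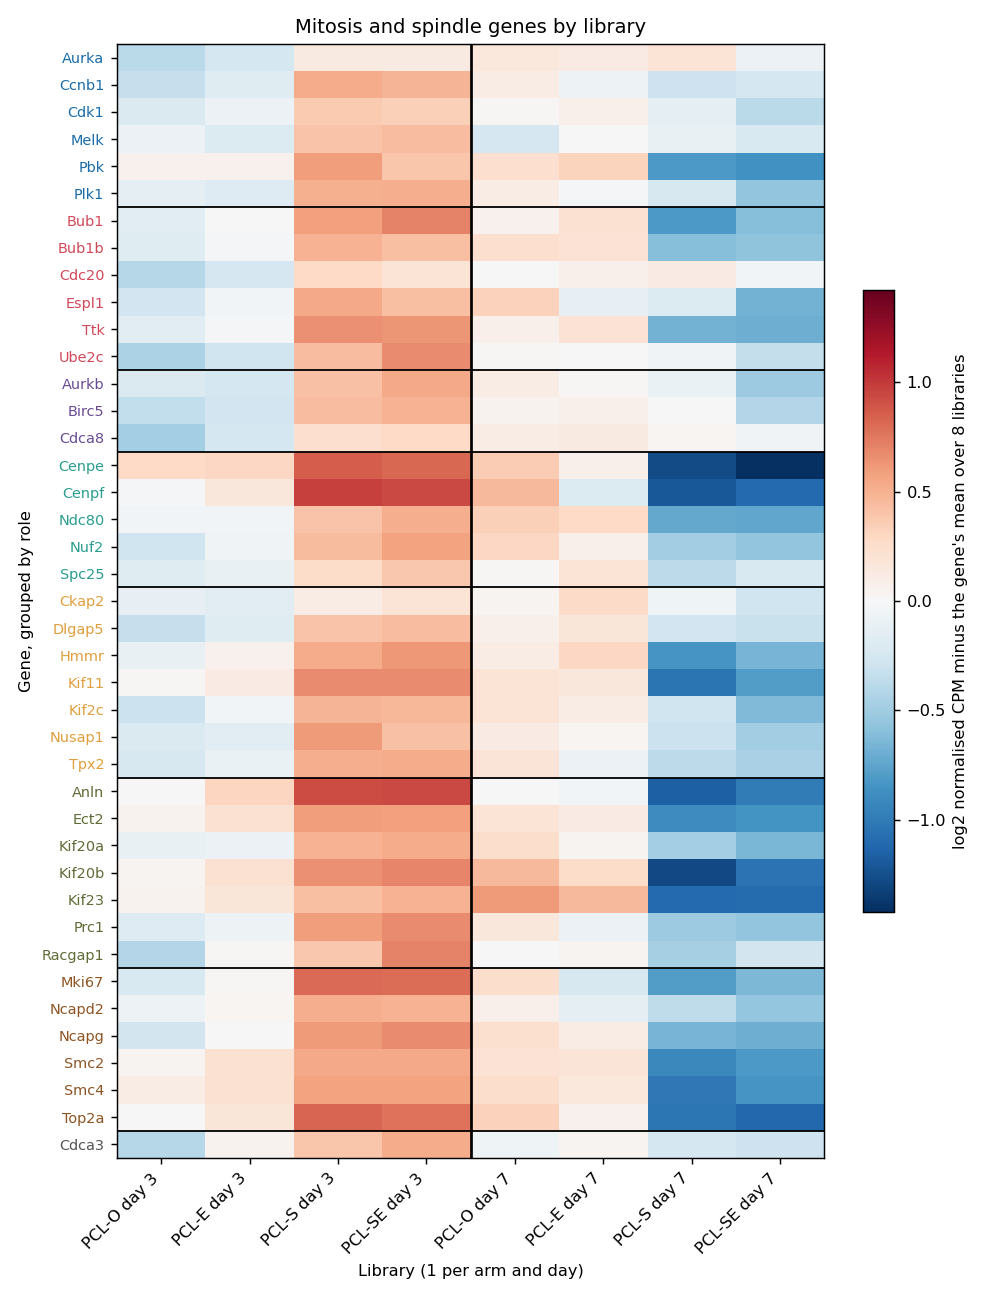
Each row is 1 of the 41 genes, grouped by role, and each column is 1 library; colour shows the log2 of normalised CPM relative to the gene's mean over the 8 libraries. The columns of PCL-S and PCL-SE are above the mean on day 3 and mostly below it on day 7, while those of PCL-O and PCL-E lie nearer to it.

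Levels between genes can be compared only per length, from the authors' deposited FPKM (fragments scaled by gene length and library size). In PCL-O day 3 Cdk1 had the highest FPKM of the 41 at 29.9, followed by the ring scaffold Anln at 23.7, the microtubule protein Ckap2 at 22.4 and the kinesin Kif20a at 20.9. The lowest FPKM there were those of separase (Espl1) at 2.63 and of the kinase Melk at 3.70.

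Many promoters of G2 and M genes carry the cell cycle genes homology region, TTTGAA, which the DREAM and MuvB complexes contact through Lin54, and the CCAAT box bound by NF-Y. Promoter windows of mouse RefSeq (GRCm38.p6; 250 bases before to 50 after the start) were found for 35 of the 41 genes by symbol; they are mouse sequence, and whether the cells are mouse was not settled. TTTGAA on either strand stood in 28 of the 35 (80%), against 20.2% of 27025 genes with a window, and CCAAT on either strand in 27 (77.1%) against 41.1%. In the 100 bases before the start TTTGAA stood in 9 (25.7%) against 6.76%, and CCAAT in 23 (65.7%) against 21.6%; matches of the 2 motifs overlapped in 1 window. The stretches below are from the 9 genes with a match in those 100 bases, 1 copy for each, with TTTGAA or its reverse complement TTCAAA in capitals, read 5′ to 3′ on the gene's strand up to the start or 20 bases past the motif.
Cdk1 (chr10:69352958-69353023, minus strand): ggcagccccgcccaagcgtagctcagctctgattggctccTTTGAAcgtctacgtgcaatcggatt
Cdc20 (chr4:118437344-118437401, minus strand): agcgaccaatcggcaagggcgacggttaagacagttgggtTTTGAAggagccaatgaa
Ube2c (chr2:164769860-164769925, plus strand): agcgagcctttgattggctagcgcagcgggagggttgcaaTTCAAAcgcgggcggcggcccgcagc
Espl1 (chr15:102296226-102296291, plus strand): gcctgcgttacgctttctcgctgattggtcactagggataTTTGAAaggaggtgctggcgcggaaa
Kif11 (chr19:37376323-37376381, plus strand): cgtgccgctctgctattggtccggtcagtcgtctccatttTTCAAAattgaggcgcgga
Prc1 (chr7:80294406-80294471, plus strand): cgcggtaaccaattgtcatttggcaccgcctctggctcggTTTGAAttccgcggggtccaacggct
Top2a (chr11:99024190-99024252, minus strand): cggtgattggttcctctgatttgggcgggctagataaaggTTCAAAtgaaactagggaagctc
Mki67 (chr7:135716452-135716517, minus strand): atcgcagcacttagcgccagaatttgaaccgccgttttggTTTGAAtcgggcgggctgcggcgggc
Ncapg (chr5:45669855-45669920, plus strand): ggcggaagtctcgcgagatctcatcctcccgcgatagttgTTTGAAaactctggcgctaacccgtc
The copies in capitals start 18 to 98 bases before the transcription start; further copies start 15 bases before it in Cdk1, 5 in Prc1, 179 in Top2a and 116 in Mki67. A match in letters is a description and not a site of binding. Of the 28 genes with TTTGAA anywhere in the window 25 rose with S7 on day 3 and 21 fell on day 7, by the test described below. Of the 7 without it (Ccnb1, Melk, Bub1, Birc5, Nuf2, Cenpe and Nusap1) 7 rose and 5 fell. Among all genes tested 7.1% rose on day 3 and 26.2% fell on day 7. A difference between the 28 and the 7 was not tested.

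Whether S7 changed the transcripts on each day was asked by setting the arms with S7 (PCL-S and PCL-SE) against those without (PCL-O and PCL-E). Genes were tested with edgeR's quasi-likelihood test in a model of S7, day, their interaction and E7, and called at a Benjamini-Hochberg adjusted p under 0.05 over all genes; every adjusted p below is from this fit. Errors are standard errors of the log2 fold change. Each group of 2 libraries pools 2 different arms, and the E7 term takes out the difference that these pairs share. The p-values therefore rest on how constant that difference is across S7 and day, and not on the spread between cultures.

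On day 3, 37 of the 41 genes rose with S7 and 0 fell, in a comparison in which 7.1% of all genes tested rose and 6.87% fell. The median of their log2 fold changes was 0.62 (range 0.29 to 0.92), against 0.0032 over all genes. Each of the 41 was higher in both S7 arms than in both arms without, as were 35.2% of all genes, while 33.4% were lower in both. The 4 that did not pass the test were Aurka (0.44 ± 0.13, adjusted p = 0.0618), Pbk (0.44 ± 0.12, 0.0539), Espl1 (0.62 ± 0.18, 0.0618) and Ckap2 (0.29 ± 0.11, 0.154). The calls rest on having all 4 day 3 libraries: with any 1 of them left out most were lost, as were most calls over all genes. The 37 kept their sign and the median stayed between 0.53 and 0.73.

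On day 7 the direction was the opposite: 31 of the 41 fell with S7 and 0 rose, in a comparison in which 26.2% of all genes tested fell and 24.9% rose. Their median log2 fold change was −0.60, from −1.63 for Kif23 to −5.91e-05 for Cdc20, against −0.029 over all genes. For 38 of the 41 both S7 arms were lower than both arms without, as for 38.4% of all genes, and for 0 of the 41 both were higher, as for 36.7%. Scaling to library totals raised the median of all genes to 0.19 and the calls over all genes to 5642 higher and 3010 lower, against 3965 and 4172 with TMM. On that scale 21 of the 41 fell (18.9% of all genes), with a median of −0.37. Both S7 arms were then lower for 28 of the 41 (28.2% of all genes) and higher for 1 (47.6%). The calls lost were those of Ccnb1, Plk1, Espl1, Spc25, Kif2c, Tpx2, Nusap1, Dlgap5, Racgap1 and Ncapd2. With each library's gene length trend removed 23 of the 41 fell and 0 rose, where 20% of all genes fell and 34% rose; the calls of Ccnb1, Espl1, Kif2c, Tpx2, Nusap1, Dlgap5, Racgap1, Mki67 and Ncapd2 ended and Cdk1 was called. Without PCL-SE day 7 some calls were lost, among the 41 as over all genes. With 1 library left out the median of the 41 stayed between −0.72 and −0.48.

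The 29 genes that rose on day 3 and fell on day 7 make up 70.7% of the 41, against 1.45% (231) of all genes tested. A further 8 rose on day 3 and were not called on day 7 (Cdk1, Melk, Cdc20, Ube2c, Aurkb, Birc5, Cdca8 and Cdca3), 2 fell on day 7 and were not called on day 3 (Pbk and Espl1), and 2 were called on neither day (Aurka and Ckap2).

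**Figure D2:**
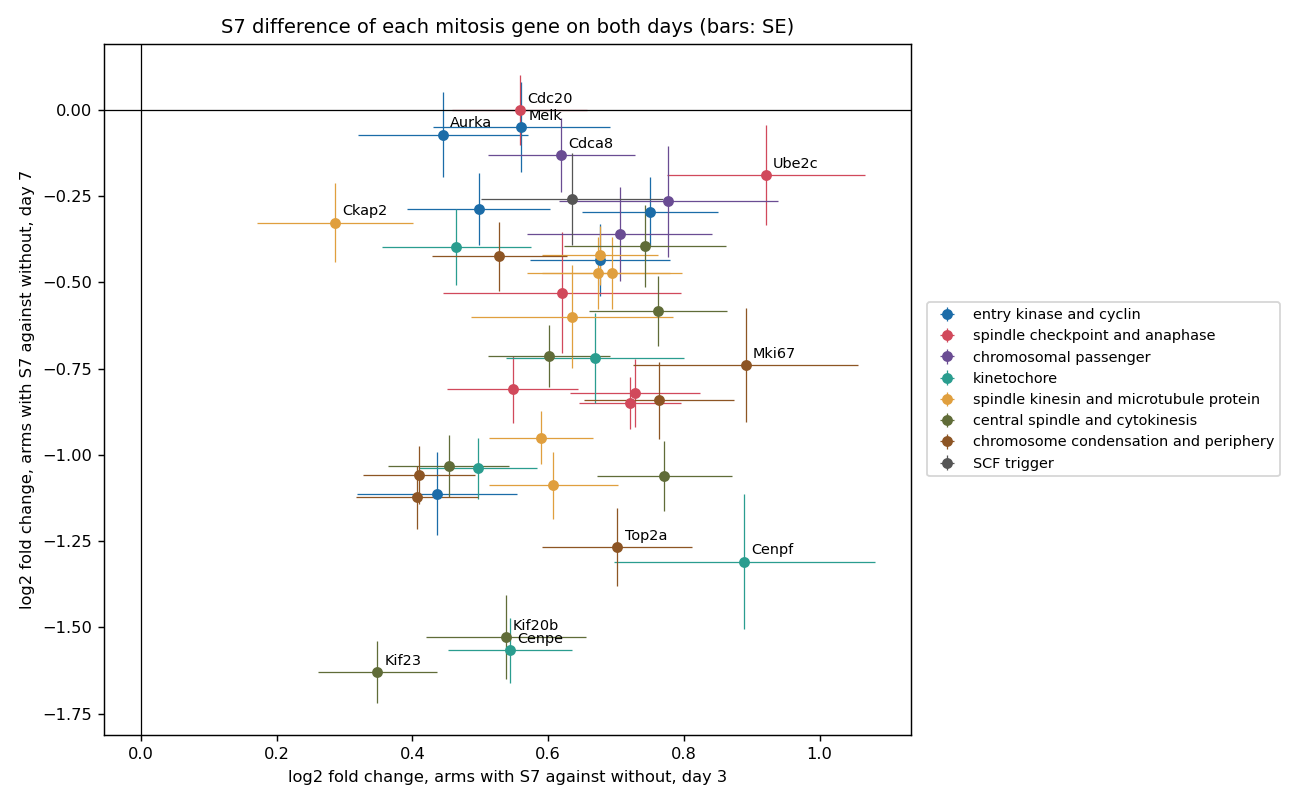
Each point is 1 of the 41 genes, coloured by role, at its log2 fold change with S7 on day 3 (horizontal axis) and on day 7 (vertical axis), with bars of 1 standard error. All lie right of 0 and at or below 0, from Cdc20 at −5.91e-05 to Kif23 at −1.63 on day 7.

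Of the 6 entry kinases and cyclins, 4 rose on day 3 and 3 fell on day 7. For this class and those below, the shares over all genes are 7.1% risen on day 3 and 26.2% fallen on day 7. The classes also differ in gene length, described further below, and differences between classes were not tested. Cdk1, the kinase that drives entry into mitosis, stood at 40.3 for PCL-O, 43.9 for PCL-E, 60.4 for PCL-S and 58.7 for PCL-SE normalised CPM on day 3, and rose (0.50 ± 0.10, adjusted p = 0.025). On day 7 it stood at 46.99, 48.8, 42.8 and 35.8 in the same order, lower in both S7 arms but not called (−0.29 ± 0.10, adjusted p = 0.0564). Its partner cyclin B1 (Ccnb1) had the largest day 3 change of the class, with 24.6, 27.3, 44.3 and 43.04 (0.75 ± 0.10), and stood at 33.3, 29.3, 25.2 and 25.8 on day 7, where it fell (−0.29 ± 0.10, adjusted p = 0.0449). Polo-like kinase Plk1, which matures centrosomes and acts through to cytokinesis, rose on day 3 (0.68 ± 0.10) and fell on day 7 (−0.44 ± 0.10). The day 7 call of Ccnb1 ended under library totals and with the length trend removed, and that of Plk1 under library totals. Pbk, a mitotic protein kinase, fell most of the class on day 7. It stood at 13.7, 13.7, 19.9 and 17.3 on day 3 and 15.5, 16.4, 7.50 and 7.27 on day 7 (−1.11 ± 0.12, adjusted p = 0.000607), with both S7 arms far below the other arms. Aurka, the Aurora kinase of centrosomes and spindle poles, was not called on either day, with 13.2, 14.5, 18.9 and 18.9 on day 3 and 19.1, 18.7, 19.8 and 16.3 on day 7 (−0.07 ± 0.12). Melk, a kinase abundant in dividing cells, stood at 11.9, 11.1, 16.7 and 17.2 on day 3, where it rose (0.56 ± 0.13), and at 10.7, 12.6, 11.7 and 10.9 on day 7 (−0.05 ± 0.13, not called).

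Of the 6 checkpoint and anaphase genes, 5 rose on day 3 and 4 fell on day 7. Bub1, a checkpoint kinase at kinetochores, had the largest day 7 change of the class. It stood at 33.9 for PCL-O, 37.3 for PCL-E, 56.3 for PCL-S and 61.1 for PCL-SE on day 3 (0.72 ± 0.07) and at 39.3, 43.8, 21.4 and 24.8 on day 7 (−0.85 ± 0.08, adjusted p = 0.000318). Bub1b (BubR1), which binds and inhibits Cdc20, and Ttk (Mps1), the kinase that starts checkpoint signalling, rose by 0.55 and 0.73 on day 3 and changed by −0.81 and −0.82 on day 7, all called. The genes that drive the APC/C were not called on day 7. Ube2c, its ubiquitin-conjugating enzyme, had the largest day 3 change of all 41 (0.92 ± 0.15, adjusted p = 0.00986), with 12.1, 13.6, 22.5 and 26.3, and stood at 16.8, 16.5, 16.1 and 13.1 on day 7, not called (−0.19 ± 0.14). Cdc20, its activator in metaphase, rose on day 3, with 29.6, 33.2, 47.6 and 44.8 (0.56 ± 0.10). On day 7 its levels of 39.3, 40.9, 42.3 and 37.9 overlapped between the arms with and without S7. Espl1, the protease that cleaves cohesin, stood at 20.4, 24.00, 35.7 and 33.03 on day 3 and 30.8, 22.7, 21.5 and 15.5 on day 7, where it fell (−0.53 ± 0.18, adjusted p = 0.0414), a call that ended under library totals and with the length trend removed.

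The 3 chromosomal passenger genes rose on day 3, and 0 of 3 was called on day 7. The complex corrects wrong attachments at centromeres and later moves to the spindle midzone. Its kinase Aurkb stood at 19.7 for PCL-O, 19.1 for PCL-E, 30.2 for PCL-S and 32.9 for PCL-SE on day 3 (0.71 ± 0.14) and 24.4, 22.95, 21.3 and 15.8 on day 7 (−0.36 ± 0.14, adjusted p = 0.0646). Survivin (Birc5), which docks the complex on chromatin, stood at 7.53, 7.94, 12.99 and 13.6 on day 3 (0.78 ± 0.16) and 9.95, 10.1, 9.58 and 7.20 on day 7 (−0.26 ± 0.16, adjusted p = 0.211). Borealin (Cdca8) stood at 14.4, 17.00, 23.8 and 24.5 on day 3 (0.62 ± 0.11) and 21.7, 22.1, 20.6 and 19.5 on day 7 (−0.13 ± 0.11). Cdca3, which triggers entry into mitosis as part of an SCF ubiquitin ligase, had the same calls: it stood at 13.6, 18.7, 23.8 and 26.2 on day 3, where it rose (0.63 ± 0.13), and at 17.4, 18.6, 15.2 and 14.8 on day 7, where it was not called (−0.26 ± 0.13, adjusted p = 0.152).

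All 5 kinetochore genes rose on day 3 and fell on day 7. Cenpf, a large coiled-coil protein of the outer kinetochore, stood at 56.3 for PCL-O, 64.2 for PCL-E, 113 for PCL-S and 111 for PCL-SE on day 3 (0.89 ± 0.19). On day 7 it stood at 79.3, 50.2, 25.1 and 26.7 (−1.31 ± 0.20, adjusted p = 0.00199), with PCL-E between PCL-O and the S7 arms. Cenpe, the kinesin that carries chromosomes to the metaphase plate, stood at 60.7, 61.01, 90.3 and 87.2 on day 3 (0.54 ± 0.09) and at 63.8, 52.4, 20.6 and 18.6 on day 7 (−1.57 ± 0.09, adjusted p = 0.000128). Of the Ndc80 complex, which grips microtubule ends, Ndc80 changed by −1.04 ± 0.09 on day 7, Nuf2 by −0.72 ± 0.13 and Spc25 by −0.40 ± 0.11, after rises of 0.50, 0.67 and 0.46 on day 3. Under library totals Spc25 was not called on day 3 or day 7.

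Of the 7 spindle kinesins and microtubule proteins, 6 rose on day 3 and the same 6 fell on day 7. Kif11 (Eg5), the kinesin that pushes the spindle poles apart, had the largest day 7 change of the class. It stood at 33.3 for PCL-O, 35.6 for PCL-E, 52.5 for PCL-S and 52.4 for PCL-SE on day 3 (0.61 ± 0.10) and 37.6, 36.6, 15.97 and 19.01 on day 7 (−1.09 ± 0.10, adjusted p = 0.000323). Nusap1, a microtubule-bundling protein, had the largest day 3 change, with 16.3, 16.8, 28.6 and 25.2 (0.69 ± 0.10), and stood at 20.4, 19.1, 15.2 and 13.3 on day 7 (−0.47 ± 0.10). Hmmr, a spindle assembly protein, changed by −0.95 on day 7, Kif2c (MCAK), which depolymerises microtubules, by −0.60, Tpx2, the activator of Aurora A, by −0.47 and Dlgap5 (HURP), which stabilises kinetochore fibres, by −0.42. The day 7 calls of Nusap1, Kif2c, Tpx2 and Dlgap5 ended under library totals and with the length trend removed (there −0.23, −0.41, −0.25 and −0.22), while Kif11 and Hmmr kept theirs. Ckap2 differed least on day 3 of all 41 genes: it stood at 64.5, 62.2, 75.1 and 79.5 on day 3 and 71.7, 84.3, 67.01 and 57.4 on day 7, and was not called on either (−0.33 ± 0.11 on day 7, adjusted p = 0.0501).

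All 7 genes of the central spindle and cytokinesis rose on day 3 and fell on day 7, with a median of −1.03 on day 7. Kif23 (MKLP1), the motor of centralspindlin, was the lowest of the 41 on day 7. It stood at 51.5 for PCL-O, 56.1 for PCL-E, 66.96 for PCL-S and 69.9 for PCL-SE on day 3 (0.35 ± 0.09) and 75.6, 68.4, 23.2 and 23.3 on day 7 (−1.63 ± 0.09, adjusted p = 0.000123) and the arms did not overlap. Its centralspindlin partner Racgap1, a GTPase-activating protein, changed by −0.39 ± 0.12 on day 7 after a rise of 0.74 ± 0.12; its day 7 call ended under library totals and with the length trend removed. Anillin (Anln), the scaffold of the contractile ring, stood at 90.3, 111, 170.2 and 172 on day 3 (0.77 ± 0.10) and 89.8, 87.5, 40.3 and 44.96 on day 7 (−1.06 ± 0.10, adjusted p = 0.000407). Kif20b, a kinesin of late cytokinesis, changed by −1.53 ± 0.12 on day 7 and Ect2, the exchange factor that activates RhoA at the cleavage site, by −1.03 ± 0.09. Kif20a (MKLP2), which brings the passenger complex to the midzone, changed by −0.71 ± 0.09 and Prc1, which bundles antiparallel microtubules there, by −0.58 ± 0.10.

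All 6 genes of chromosome condensation and the chromosome periphery rose on day 3 and fell on day 7. Mki67, whose Ki-67 protein coats mitotic chromosomes and is the common stain for dividing cells, stood at 93.1 for PCL-O, 109 for PCL-E, 188 for PCL-S and 187 for PCL-SE on day 3 (0.89 ± 0.17, adjusted p = 0.0163). On day 7 it stood at 128, 92.2, 62.3 and 69.5 (−0.74 ± 0.17, adjusted p = 0.00998), with PCL-E again between PCL-O and the S7 arms. Top2a, the topoisomerase that untangles sister chromatids, stood at 88.6, 100.3, 157 and 151 on day 3 (0.70 ± 0.11) and 111, 92.3, 43.4 and 40.9 on day 7 (−1.27 ± 0.11, adjusted p = 0.000316). The condensin ATPases Smc2 and Smc4 changed by −1.06 and −1.12 on day 7, and the condensin I subunits Ncapg and Ncapd2 by −0.84 and −0.42. With the length trend removed the day 7 values of Mki67 and Ncapd2 were 0.060 and −0.062 and neither was called, and the call of Ncapd2 ended under library totals too. On day 3 these 4 had risen by 0.41, 0.41, 0.76 and 0.53 in the same order.

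**Figure D3:**
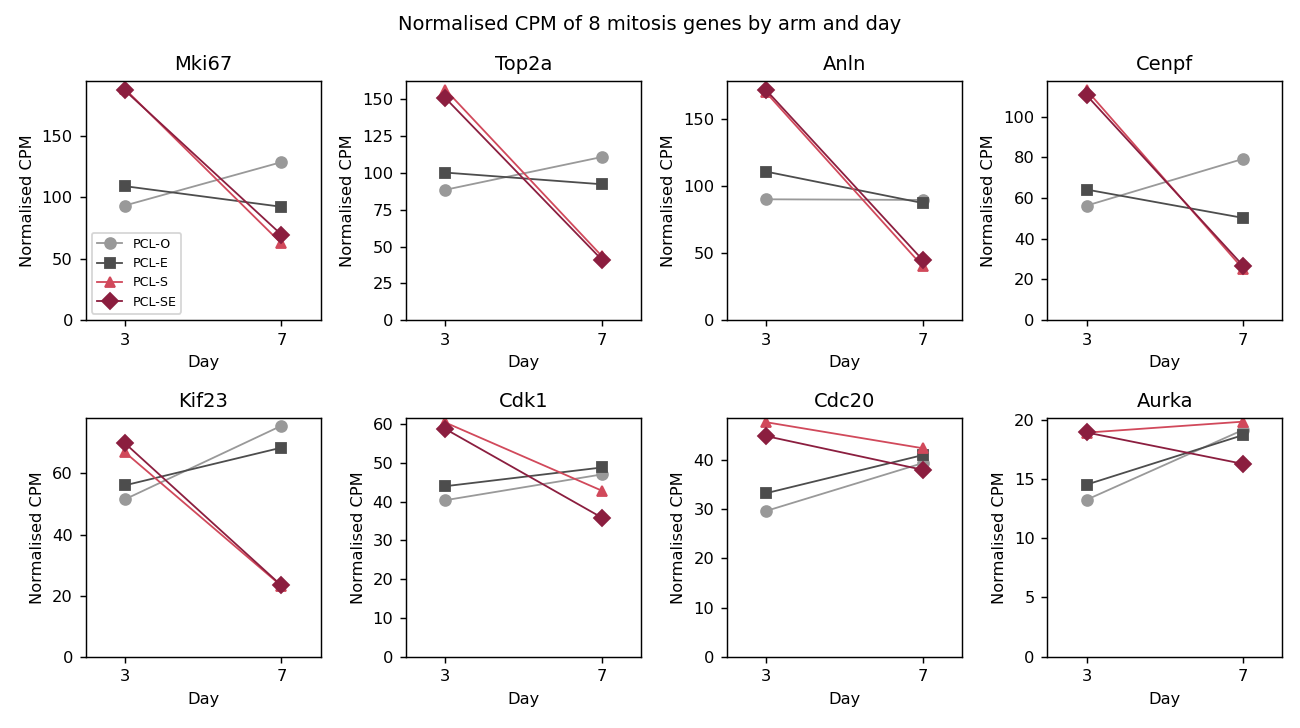
Normalised CPM of selected genes in each arm on day 3 and day 7, 1 point per library (no replicates), with lines joining the 2 days of an arm. In Mki67 and Top2a the S7 arms start above the other arms and end below them; in Cdc20 the arms meet on day 7.

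The same genes were followed between the days within each kind of arm. Without S7, 0 of 41 passed the test for day 7 against day 3, in a comparison in which 1.61% of all genes did; 38 of the 41 values were positive, with a median of 0.23. Over all genes, 256 were called by edgeR and 2514 had an unadjusted p under 0.05, and DESeq2 called 832 genes, 3 of them among the 41. With S7, 37 of the 41 fell, against 26.4% of all genes, with a median of −1.04. The steepest were Cenpe (−2.18 ± 0.10), Cenpf (−2.11 ± 0.20) and Anln (−2.01 ± 0.10), and those not called were Aurka (−0.07 ± 0.12), Cdc20 (−0.20 ± 0.10), Cdca8 (−0.27 ± 0.11) and Ckap2 (−0.31 ± 0.11). Scaling to library totals moved the median of all genes to 0.28 here; 33 of the 41 then fell (16.8% of all genes), with a median of −0.73, and calls over all genes came to 6255 higher and 2685 lower, against 3889 and 4201.

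Whether the effect of S7 differed between the days was tested by the interaction. For 40 of the 41 it was lower on day 7 than on day 3, against 15.5% of all genes tested, with a median of −1.32. The largest were those of Cenpf (−2.20 ± 0.28, adjusted p = 0.00332), Cenpe (−2.11 ± 0.13), Kif20b (−2.07 ± 0.17), Kif23 (−1.98 ± 0.13) and Top2a (−1.97 ± 0.16). Aurka was the exception (−0.52 ± 0.18, adjusted p = 0.0686). Under library totals 37 of the 41 were called (11% of all genes were lower), with the median of all genes at 0.21 and 3721 higher and 1750 lower calls over all genes, against 2105 and 2473.

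For E7, 0 of 41 genes and 0% of all genes were called by edgeR over both days, and DESeq2 called 1 gene, outside the 41; 589 of all genes had an unadjusted p under 0.05. Values for the 41 ran from −0.20 ± 0.12 for Espl1 to 0.25 ± 0.08 for Racgap1, with a median of 0.01. Single libraries can be set side by side but not tested, and ratios of them share PCL-O as the control. On day 3 the median log2 ratio to PCL-O was 0.65 for PCL-S, 0.13 for PCL-E and 0.65 for PCL-SE (2 normalised CPM added), with 41, 35 and 41 of the genes higher. On day 7 it was −0.65, −0.06 and −0.70, with 38, 27 and 40 lower. PCL-SE lay close to PCL-S on both days, with medians of 0.01 and −0.04. From day 3 to day 7 the medians within an arm were 0.33 for PCL-O, 0.13 for PCL-E, −0.86 for PCL-S and −1.02 for PCL-SE.

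Gene length moved with the day 7 result. The mean gene length weighted by counts was 3134 bases in PCL-S day 7 and 3176 in PCL-SE day 7, and 3563 to 4018 in the other 6 libraries. Across the 41 genes, whose values come from the same 8 libraries, the day 7 log2 fold change had a Spearman correlation of −0.67 with length, against −0.23 across 15283 genes with a length; on day 3 it was 0.05 and −0.04. Of the 17 genes under 3000 bases 9 fell on day 7, against 20.4% of all genes of that length, and of the 24 longer ones 22 did, against 39.0%; this cut was chosen after the values were seen. The genes not called on day 7 include the short Ube2c, Birc5 and Cdk1 (831, 930 and 1292 bases), and the lowest include the long Cenpe and Cenpf (8107 and 10711 bases). Other genes depart from this: Kif23, the lowest of all, has 3130 bases, and Pbk fell by −1.11 with 1947 bases. Melk and Aurkb, with 3024 and 3205 bases, were not called. With each library's length trend removed, 40 of the 41 rose on day 3 (median 0.65), against 9.33% of all genes. On day 7 the median of the 41 was −0.39, with the median of all genes at 0.14 and 5420 genes higher and 3189 lower. Between the days with S7 36 fell, against 20.2% of all genes (5169 higher and 3217 lower). In that fit the day 7 value of Mki67 became 0.060 and that of Espl1 0.088, and neither kept its call. Both values lay above 0 but below the median of all genes in that fit. Aurka, Melk and Cdc20, which had not been called, changed sign there as well.

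**Figure D4:**
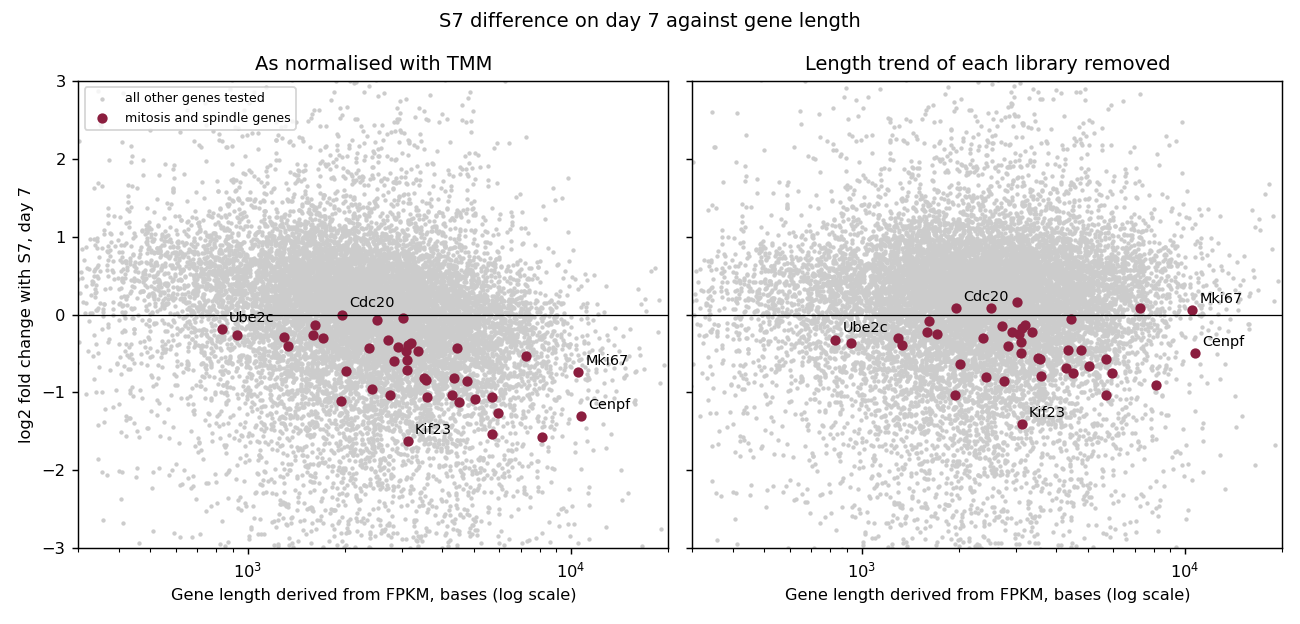
Each point is a gene at its length in bases (logarithmic axis) and its log2 fold change with S7 on day 7. The left panel is normalised with TMM, and the right panel has each library's length trend removed. The 41 mitosis and spindle genes are marked over all genes with a length. Among the 41, the genes at or above 3000 bases lie lower (median −0.83) than the shorter ones (median −0.33) in the left panel. In the right panel these medians are −0.49 and −0.30.

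Other genes of mitosis and of its transcription, 109 of 111 listed, were read from the same fit. On day 3, 40 rose and 0 fell (median 0.43), where 7.1% and 6.87% of all genes did. On day 7, 10 rose and 45 fell (median −0.26), where 24.9% and 26.2% of all genes did. With the length trend removed 26 rose and 28 fell on day 7, where 34% and 20% of all genes did. The highest on day 3 were Cdca5 (0.98 ± 0.33, not called), which protects cohesion, Mybl2 (0.85 ± 0.15), the B-Myb factor that activates G2 and M genes, and Hjurp (0.83 ± 0.15), which loads CENP-A. Cyclin A2 (Ccna2) rose on day 3 (0.82 ± 0.08) and fell on day 7 (−0.60 ± 0.08), as did Foxm1, a transcription factor of these genes (0.51 ± 0.12 and −0.54 ± 0.13). The MuvB subunits Lin9 and Lin54 had values of −0.01 ± 0.18 and 0.26 ± 0.10 on day 3, and Lin54 −0.06 ± 0.10 and Lin9 −0.32 ± 0.18 on day 7. The lowest on day 3 were Lin52 (−0.42 ± 0.20), Gtse1 (−0.30 ± 0.10) and Lin37 (−0.29 ± 0.14), none of them called. On day 7 the lowest were the cytokinesis kinase Cit (−1.66 ± 0.20), Depdc1 (−1.66 ± 0.13) and the cohesin protector Sgo2 (−1.58 ± 0.13).

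The 10 that rose on day 7 were a smaller share than that of all genes (24.9%). They were led by Lin37 (1.05 ± 0.14), a MuvB subunit, the checkpoint protein Bub3 (0.89 ± 0.09) and the APC/C subunit Anapc11 (0.85 ± 0.08). The others were Gtse1 (0.79), Cenpm (0.68), Anapc7 (0.49), Fzr1 (0.41), the APC/C activator of late mitosis and G1, Anapc13 (0.38), E2f4 (0.37), an E2F of the DREAM complex, and Anapc2 (0.32).

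Of 29 DNA replication genes found among 30 listed, 14 rose and 0 fell on day 3 (median 0.53), where 7.1% and 6.87% of all genes did. On day 7, 9 rose and 4 fell (median 0.05), where 24.9% and 26.2% of all genes did. The highest on day 3 were the ribonucleotide reductase subunit Rrm2 (0.97 ± 0.10), Orc1 of the origin recognition complex (0.79 ± 0.24, not called) and the helicase factor Mcm10 (0.74 ± 0.16), and the lowest were Rfc3 (−0.01), Ccne1 (0.03) and Tyms (0.09), none called. On day 7 the licensing factor Cdt1 (1.11 ± 0.19), the clamp loader subunit Rfc4 (1.08 ± 0.15) and Gins2 (0.98 ± 0.18) of the replicative helicase were highest. The 4 that fell were cyclin E2 (Ccne2, −1.49 ± 0.11), Cdc6 (−0.66 ± 0.15), Pola1 (−0.38 ± 0.10) and Mcm4 (−0.27 ± 0.07); Pole, among the 3 lowest, was not called (−0.47 ± 0.17).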

How the data were processed

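Messenger RNA was profiled in 8 libraries, 1 per arm and day, made with TRIzol and a SMARTER mRNA kit per the labels' protocols. The deposited table holds whole-number counts per gene and FPKM made by the authors, per the file headers; the submitters' processing notes name mm10, while 22050 identifiers are rat, 0 are mouse and 4823 features are new genes without a symbol, and no aligner is named in the sources used here. Lines that were fragments of annotation text, 10 in all, were left out. The deposited FPKM served for levels between genes and, with the counts, for gene lengths.

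Counts were filtered with filterByExpr and scaled by TMM in edgeR 4.0.16 (R 4.3.3). Terms for S7, E7, day and S7 by day left 3 residual degrees of freedom (edgeR's coefficient of variation 0.137), and were tested by quasi-likelihood F-tests with Benjamini-Hochberg adjustment over 15942 genes. The members, gene lists, model and alternatives were chosen with earlier results of these data known. Genes named with the value in every library are, per role, the one with the highest mean CPM, those with the largest change with S7 on each day, and those not called where most were; of the other mitosis and replication genes, the 3 highest and 3 lowest on each day, those called against most of their list, and Foxm1, Mybl2, Ccna2, Lin9 and Lin54. Pair ratios are log2 of normalised CPM with 2 added. On simulated counts the S7 day 3 test recovered 71.6% of 2-fold and 11.9% of 1.5-fold changes (15550 genes), and the day 7 test 64.2% and 7.46% (15595 genes). Each simulation changed 67 genes by 1.5-fold, 67 by 2-fold and 66 by 4-fold, and gave every gene the same coefficient of variation. Far more genes were called in the data (2227 on day 3 and 8137 on day 7). The shares recovered therefore do not measure recovery in the data. Alternatives were library totals, DESeq2 1.42.0, size factors of its kind in edgeR, no low-count filter, E7 left out or by day, removal of a gene length trend, and leaving out each library. Tables and figures used Python 3.11.15, pandas 2.3.3 and matplotlib 3.10.9.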

Additional observations from a re-analysis of the deposited data

Results flagged for a closer look

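For 40 of the 41 genes the effect of S7 differed between the days by the interaction test (edgeR quasi-likelihood, adjusted p under 0.05 over all genes); values are S7 on day 7 minus S7 on day 3, in log2. Among entry kinases and cyclins it was −0.78 for Cdk1, −1.05 for Ccnb1, −1.11 for Plk1, −0.61 for Melk and −1.55 for Pbk. In checkpoint and anaphase genes it came to −1.57 for Bub1, −1.36 for Bub1b, −1.55 for Ttk, −0.56 for Cdc20, −1.11 for Ube2c and −1.15 for Espl1. The passenger genes had −1.06 for Aurkb, −1.04 for Birc5 and −0.75 for Cdca8. For kinetochore genes the difference was −1.54 for Ndc80, −1.39 for Nuf2, −0.86 for Spc25, −2.11 for Cenpe and −2.20 for Cenpf. Spindle kinesins and microtubule proteins showed −1.70 for Kif11, −1.23 for Kif2c, −1.15 for Tpx2, −1.17 for Nusap1, −1.54 for Hmmr, −0.61 for Ckap2 and −1.10 for Dlgap5. Of the central spindle and cytokinesis genes the values were −1.32 for Kif20a, −2.07 for Kif20b, −1.98 for Kif23, −1.34 for Prc1, −1.49 for Ect2, −1.83 for Anln and −1.14 for Racgap1. Condensation and periphery genes had −1.97 for Top2a, −1.63 for Mki67, −1.61 for Ncapg, −0.95 for Ncapd2, −1.47 for Smc2 and −1.53 for Smc4. The remaining gene had −0.89 for Cdca3. Aurka was the gene that did not pass. These values share the same 8 libraries, and the cause was not tested.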

How the results depend on the processing

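No paired analysis was possible because no replicate number beyond 1 is shared. A fit with an E7 by day term sets S7 against no S7 at equal E7 and day. It called 33 of the 41 genes on day 3 and 30 on day 7, and 1706 and 7476 over all genes. The 7 other settings gave 1706 to 2691 calls over all genes on day 3 and 7476 to 8652 on day 7. For the day change with S7 they gave 7601 to 8940, and for the interaction 3811 to 5471. The number of genes called on day 3 was 33 to 40 under the 7 other settings and 0 to 41 with 1 library left out. On day 7 it was 21 to 32 under the other settings and 21 to 30 with 1 library left out, for the day change with S7 33 to 38 and 34 to 38, and for the interaction 37 to 40 and 29 to 40. For the day change without S7, 0 of the 41 genes were called. Library totals, the E7 term left out and the length trend removed gave 1 each, and DESeq2 gave 3. Over all 15942 genes 256 were called, against 143 with an E7 by day term and 832 with DESeq2. Without the low-count filter 370 were called among the 21739 genes tested in that fit. For E7, 0 of the 41 were called under each alternative. Over all genes, leaving out 1 library gave 257 to 3847 calls for S7 on day 3 (2227 with all 8), 5003 to 8326 calls for S7 on day 7 (8137), 0 to 1347 calls for the day change without S7 (256), 4479 to 9206 calls for the day change with S7 (8090) and 1537 to 6219 calls for the interaction (4578).

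Some values changed sign, and none was called once it had. For S7 on day 7, library totals gave 0.15 for Aurka, 0.17 for Melk, 0.22 for Cdc20, 0.037 for Ube2c and 0.095 for Cdca8. Removing the length trend gave 0.085 for Aurka, 0.16 for Melk, 0.082 for Cdc20, 0.088 for Espl1 and 0.060 for Mki67, of which Espl1 and Mki67 had been called. Cdc20, near 0, came to 3.60e-05 with DESeq2-style size factors, 0.0099 without the low-count filter and 2.22e-04 without the E7 term. With 1 library left out they ran from −0.23 to 0.085 for Aurka, −0.19 to 0.10 for Melk, −0.099 to 0.10 for Cdc20 and −0.40 to 0.011 for Ube2c. For the day change with S7, library totals gave 0.24 for Aurka, 0.10 for Cdc20 and 0.040 for Cdca8, the length trend removed gave 0.069 for Aurka, and with 1 library left out Aurka ran from −0.23 to 0.085. Under library totals the median pair ratios shrank to −0.40 for PCL-S and −0.43 for PCL-SE against PCL-O on day 7, −0.36 for PCL-SE against PCL-E, −0.57 for PCL-S between days and −0.74 for PCL-SE. The cause of these changes in sign and size was not tested. Fits with a library left out treat a lone library as varying like the other groups. Each arm and day having 1 library limits every result, and the 8 libraries cannot show the spread between cultures.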

Other observations

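Ccnb2, the second B-type cyclin, was not matched by gene name, but 2 features without a symbol carry it as their protein match in the deposited table. Normalised CPM of the more abundant one were 8.16 for PCL-O, 9.49 for PCL-E, 15.6 for PCL-S and 16.9 for PCL-SE on day 3. On day 7 they were 10.4, 10.2, 8.05 and 9.02 in the same order. The less abundant one stood at 1.86, 0.758, 5.36 and 4.67 on day 3 and at 2.77, 4.30, 2.46 and 2.01 on day 7. In both features the S7 arms were higher than the others on day 3, as for 35.2% of all genes. On day 7 the S7 arms were lower with TMM, as for 38.4% of all genes. Scaled to library totals, the arms with and without S7 overlapped on day 7 in both features. Whether the 2 features are Ccnb2 was not tested, and they entered no count.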
